A study of Homo sapiens with 6 samples.

Results

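The genes described here are 9 genes of MHC class I antigen presentation: the heavy chains HLA-B, HLA-C, HLA-E and HLA-F, their shared light chain B2M, the peptide transporter subunits TAP1 and TAP2, the loading chaperone TAPBP and the class I transactivator NLRC5. They were chosen by gene symbol from the table of all genes, and all 9 were found among its 19202 genes. The data are RNA-seq counts from MHCC97H, an established human hepatocellular carcinoma line with high metastatic capacity. One group is 3 libraries of the sorafenib-sensitive line, called control, and the other is 3 libraries of sorafenib-resistant MHCC97H cells, called resistant. Sorafenib is an oral inhibitor of several kinases used against advanced liver cancer. The sources used here do not give how resistance was raised, whether the resistant cells are 1 clone or a population, or whether the drug was present at harvest. The study's title concerns PLEKHG5 and HDAC2 in sorafenib resistance, and the comparison of control with resistant cells addresses which transcripts differ between the sensitive and the resistant line.

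MHC class I molecules carry peptides from inside a cell to its surface, where CD8+ T cells and natural killer cells read them. Proteasomes cut proteins to peptides, the TAP1-TAP2 transporter moves these into the endoplasmic reticulum, and tapasin, the product of TAPBP, holds an empty heavy chain and B2M beside the transporter until a peptide binds. HLA-B and HLA-C are classical, highly polymorphic heavy chains, HLA-E presents signal peptides of other class I chains to the receptor NKG2A on natural killer cells, and HLA-F is a further non-classical chain. NLRC5 is recruited to class I promoters by the RFX complex, NF-Y and CREB-family factors, and interferon signalling raises it and most of the pathway. Loss of these transcripts is a known route by which liver and other tumours become less visible to T cells.

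The 6 libraries held 1913469 to 5345272 counts each, and levels are given in CPM, the counts of a gene relative to its library total, scaled between libraries by the TMM method. The labels number the libraries 1 to 3 in each group but do not say whether they came from separate cultures, so the p-values reflect only how far these libraries spread, and that spread may be technical. In bulk RNA, fewer cells of a type and less RNA per cell cannot be told apart. Of 10 tested liver and hepatoma markers, 0 were called higher and 3 lower in resistant cells, with a median log2 fold change of -0.60. Among all tested genes 24.1% were called, 11.7% higher and 12.3% lower. ALB fell from 13.4 to 20.8 CPM in control to 1.62 to 8.39 CPM (log2 fold change -1.62), APOB from 19.1 to 29.8 CPM to 2.44 to 11.99 CPM (-1.47) and SERPINA1 from 7.20 to 8.66 CPM to 1.88 to 3.79 CPM (-1.44). The keratin gene KRT8, the most abundant, had 1010 to 1401 CPM and HNF4A 36.0 to 44.9 CPM, while APOA1, APOA2 and TTR were at or near 0 in every library. Resistant replicate 3 stood apart from the other resistant libraries in markers of other cells. The endothelial genes VWF and CDH5 had 26.2 and 19.2 CPM there, against at most 1.76 and 3.09 CPM in the other 5 libraries, and the fibroblast gene COL1A2 had 13.9 CPM against at most 4.11 CPM. Summed over 8 endothelial markers this library had 200.3 CPM, against 116 and 138 CPM in the other resistant libraries and 123 to 139 CPM in control, although PECAM1, at 41.7 CPM, was within its control range of 24.9 to 43.2 CPM. The 9 fibroblast markers summed to 44.8 CPM there, 18.4 and 12.2 CPM in the other resistant libraries and 14.9 to 40.8 CPM in control. The most abundant endothelial marker, ESAM, had 62.4 to 85.1 CPM and the most abundant fibroblast marker, LUM, 3.76 to 20.2 CPM over the 6 libraries, and neither passed the test. Resistant replicate 3 held the lowest ESAM level of all, 62.4 CPM, and had 8.59 CPM of LUM, so not every marker was raised there. The 15 leukocyte markers summed to 20.7 to 32.0 CPM in control and 19.8 to 23.8 CPM in resistant cells, with CD2 at 0 in all libraries and CD3D at 0 in 5 of them. Of the 3 tested, PTPRC had 1.88 to 3.09 CPM in control and 4.33 to 5.41 CPM in resistant cells, LAPTM5 1.88 to 2.35 and 3.29 to 4.91 CPM, and CD79A 8.29 to 10.6 and 5.73 to 8.12 CPM; the groups overlap in none of these, and none passed the test. Results that rest on resistant replicate 3 are therefore given with and without it, and the part these markers play in any of them was not tested.

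Across the class I genes, HLA-E rose in resistant cells, and the other heavy chains, B2M and the loading genes did not pass the test. A gene was called when its adjusted p was below 0.05 in edgeR's quasi-likelihood test, with Benjamini-Hochberg adjustment over the 10804 genes tested. All 9 class I genes passed the filter on low counts, 1 was called higher, and 0 were called lower, where 24.1% of all tested genes were called. Without adjustment 3 had p below 0.05, namely HLA-B, HLA-E and NLRC5. Control and resistant libraries did not overlap in 3 of the 9 genes, higher in HLA-E and NLRC5 and lower in TAP1, against 38.1% of all tested genes. The median log2 fold change (log2FC, resistant minus control) of the 9 genes was 0.23, and that of all tested genes was -0.01. Neither count exceeded the share among all tested genes.

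**Figure D1:**
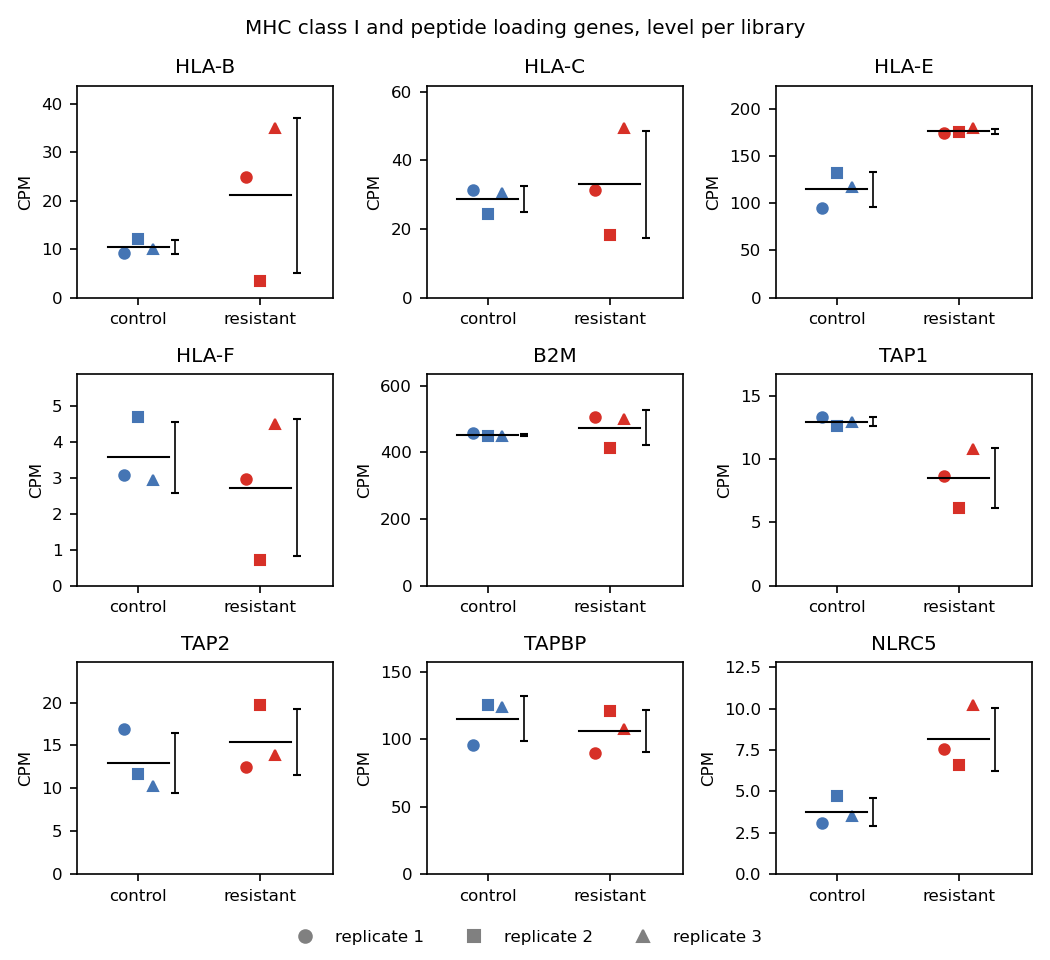
TMM-scaled CPM of the 9 class I genes in each library, 1 panel per gene with its own linear axis from 0; blue points are control and red points resistant libraries, marker shapes give the replicate number, lines are means and bars ±SD (n = 3). HLA-E lay at 95.1 to 132 CPM in control and 174 to 179 CPM in resistant cells, while HLA-B, HLA-C and HLA-F spread widely among the resistant libraries.

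HLA-E, the chain that engages NKG2A, had 95.1, 132 and 117 CPM in control replicates 1 to 3 and 174, 176 and 179 CPM in resistant replicates 1 to 3. The 3 resistant libraries lay together above the highest control library, with no overlap. The mean rose from 115 ± 18.6 to 176 ± 2.77 CPM (SD, n = 3 per group), a 1.54-fold difference. The rise had a log2FC of 0.60 (SE 0.11, adjusted p = 0.000108, edgeR's quasi-likelihood test). Without resistant replicate 3 its log2FC was 0.60, and HLA-E was called in each of the 16 alternative analyses. Its coefficient of variation (CV, SD over mean) was 1.57% among resistant libraries, at the 2.7 percentile of 2513 genes of like abundance (within 2-fold of its mean CPM), whose median was 7.82%. In control its CV was 16.2%, at the 88.9 percentile. At 642, 747 and 876 counts in the resistant libraries, counting error alone would give a CV above 1.57%, so the closeness of these 3 values is not read as a tight level.

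HLA-B, a classical heavy chain, had 9.26, 12.1 and 9.97 CPM in control and 24.9, 3.53 and 34.98 CPM in resistant replicates 1 to 3. Resistant replicates 1 and 3 lay above every control library and resistant replicate 2 below every one, so the groups overlap. Behind these levels stood 18, 64 and 34 counts in control and 92, 15 and 171 counts in resistant libraries. The group means were 10.4 ± 1.45 and 21.1 ± 16.1 CPM, control first, for a log2FC of 0.997 (SE 0.39, adjusted p = 0.0547, edgeR's quasi-likelihood test), which did not pass. Between the highest and the lowest resistant library the level differed 9.92-fold, and between control libraries 1.30-fold. The CV among resistant libraries was 76.0%, higher than in 99.7% of 3501 genes of like abundance, whose median was 18.0%. In control the CV was 13.9%.

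The result for HLA-B turned on which resistant library was in the fit. Without resistant replicate 2 the same test gave a log2FC of 1.505 and an adjusted p (edgeR) of 0.000175, and without resistant replicate 3 it gave 0.41 and 0.536. Resistant replicate 1, at 24.9 CPM for HLA-B, had 0 CPM of CDH5, 1.08 CPM of VWF and 0 CPM of COL1A2. These markers were named after their values in resistant replicate 3 were seen, and their part in the HLA-B values was not tested. Low counts and shared sequence limit HLA-B too: 2.54% of its 50-base stretches also occur in transcripts of other genes, 2.003% in HLA-C, and in the GENCODE 29 annotation its span overlaps HLA-C.

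HLA-C, the other classical chain, had 31.4, 24.3 and 30.5 CPM in control and 31.4, 18.3 and 49.3 CPM in resistant replicates 1 to 3. Resistant replicate 2 was again the lowest library of all 6 and resistant replicate 3 the highest, with resistant replicate 1 at the level of the highest control library. The means were 28.7 ± 3.86 and 33.0 ± 15.5 CPM, and the log2FC of 0.23 (SE 0.23, adjusted p = 0.526, edgeR's quasi-likelihood test) did not pass and was -0.19 without resistant replicate 3. Its CV among resistant libraries was 47.1%, higher than in 99.5% of 4195 genes of like abundance. Of its 50-base stretches, 6.71% occur in other genes' transcripts.

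HLA-F, the least abundant of the 4 heavy chains, had 3.09, 4.71 and 2.93 CPM in control and 2.98, 0.705 and 4.50 CPM in resistant cells. It ordered the resistant libraries as HLA-B and HLA-C did, with replicate 2 lowest and replicate 3 highest. Only 3 counts lay behind the value of resistant replicate 2, and the groups overlap. The log2FC was -0.41 (SE 0.62, adjusted p = 0.687, edgeR's quasi-likelihood test) and 0.05 without resistant replicate 2. At 70.0%, its CV among resistant libraries was at the 86.0 percentile of genes of like abundance, whose median was 38.5%.

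**Figure D2:**
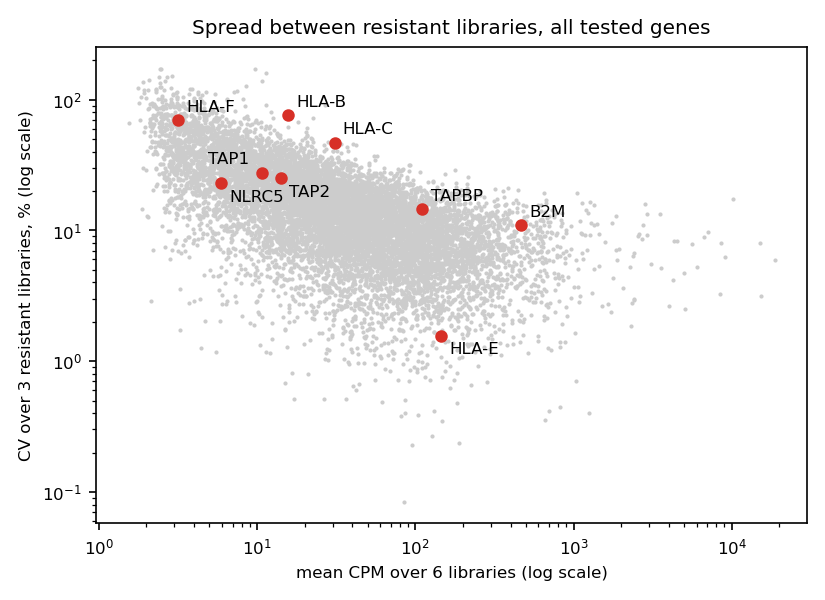
Coefficient of variation over the 3 resistant libraries (percent, log axis) against the mean level over all 6 libraries (CPM, log axis). All tested genes are in grey, and the 9 class I genes are in red and named. HLA-B (76.0%) and HLA-C (47.1%) lie at the upper edge of genes of their abundance and HLA-E (1.57%) near the lower edge.

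**Figure D3:**
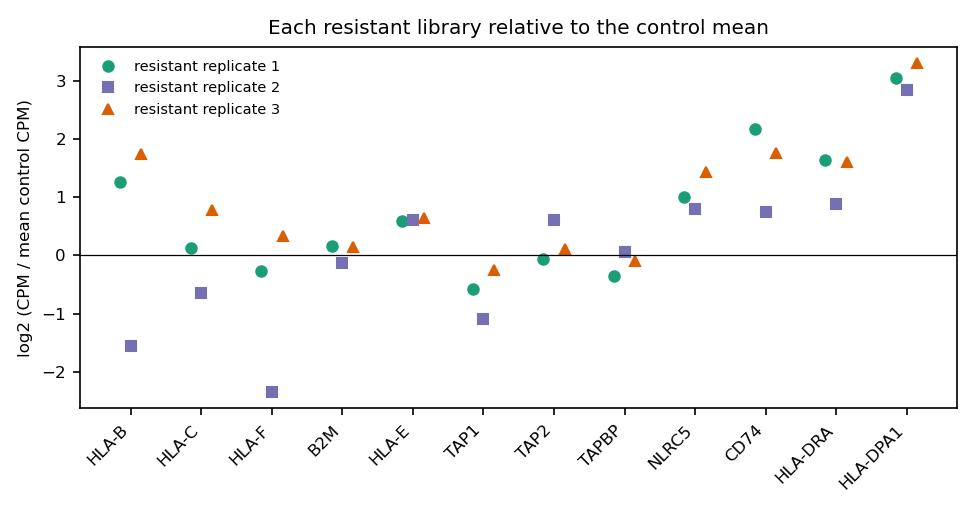
Level of each resistant library relative to the mean of the 3 control libraries (log2 of the CPM ratio) for the 9 class I genes and 3 class II pathway genes, with marker shapes for the replicate and the line at 0 for the control mean. HLA-B sat at 1.26, -1.56 and 1.75 in resistant replicates 1 to 3, HLA-E at 0.60, 0.61 and 0.64, and HLA-DPA1 at 3.05, 2.85 and 3.30.

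The order of the resistant libraries was not shared by the whole set. Resistant replicate 2 was the lowest of the 3 resistant libraries in 6 of the 9 genes, where it was the lowest in 33.2% of all tested genes, and the highest in 2 of them, TAP2 and TAPBP. Set against the control mean, resistant replicates 1 to 3 were at 1.26, -1.56 and 1.75 for HLA-B, 0.13, -0.65 and 0.78 for HLA-C, and -0.26, -2.34 and 0.33 for HLA-F on the log2 scale. For HLA-E the values were 0.60, 0.61 and 0.64. As a description over the 6 libraries, the log2 level of HLA-B had a Pearson correlation of 0.96 with B2M, 0.87 with HLA-C and 0.78 with HLA-F. These points share their libraries, their depth and, for the heavy chains, some sequence.

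The promoters of the 3 heavy chains with that order, and of B2M, are printed because their sequences show what these genes share before transcription starts. RefSeq promoters on GRCh38.p14 matched 7 of the 9 genes, without HLA-E and NLRC5, and each sequence is the 250 bases before the annotated start, read 5′ to 3′ on the gene's strand. HLA-B is at chr6:31357180-31357429 on the minus strand, HLA-C at chr6:31272093-31272342 on the minus strand, HLA-F at chr6:29723184-29723433 on the plus strand and B2M at chr15:44711267-44711516 on the plus strand. Capitals mark matches, on either strand, to CCAAT (the box that NF-Y binds), TGACG (the core of a CREB-type site), the kappaB motif, GAAANNGAAA (an interferon-response type of repeat) and TTTCNCTT, which was chosen after these sequences were read.
HLA-B: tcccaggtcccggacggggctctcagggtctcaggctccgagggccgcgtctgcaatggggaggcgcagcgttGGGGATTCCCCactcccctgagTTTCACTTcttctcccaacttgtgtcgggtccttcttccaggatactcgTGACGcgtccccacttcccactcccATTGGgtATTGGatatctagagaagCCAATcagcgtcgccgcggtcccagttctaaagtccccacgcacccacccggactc
HLA-C: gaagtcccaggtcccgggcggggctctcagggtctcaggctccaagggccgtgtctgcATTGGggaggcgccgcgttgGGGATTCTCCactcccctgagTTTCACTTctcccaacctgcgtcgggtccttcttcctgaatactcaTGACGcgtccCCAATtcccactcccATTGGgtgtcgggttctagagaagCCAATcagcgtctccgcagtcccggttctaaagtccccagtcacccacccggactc
HLA-F: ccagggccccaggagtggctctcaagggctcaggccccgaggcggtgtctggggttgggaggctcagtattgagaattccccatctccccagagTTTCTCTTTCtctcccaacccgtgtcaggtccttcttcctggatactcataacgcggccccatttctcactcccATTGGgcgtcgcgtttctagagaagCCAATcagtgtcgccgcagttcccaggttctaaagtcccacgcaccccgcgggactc
B2M: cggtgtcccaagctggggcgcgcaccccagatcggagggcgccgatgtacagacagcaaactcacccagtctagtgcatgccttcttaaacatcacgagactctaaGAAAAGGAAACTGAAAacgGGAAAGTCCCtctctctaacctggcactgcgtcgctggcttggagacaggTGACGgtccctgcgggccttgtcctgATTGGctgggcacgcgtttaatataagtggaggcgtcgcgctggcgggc
Over these 250 bases HLA-B and HLA-C were 89.0% identical, HLA-B and HLA-F 80.4%, and HLA-C and HLA-F 78.7%, while all other pairs of the 7 matched promoters had 47.3 to 51.9%. CCAAT occurred 3 times in HLA-B, 4 times in HLA-C, 2 times in HLA-F, 1 time each in B2M and TAP1 and 0 times in TAP2 and TAPBP, and 32.0% of 35116 promoters hold it. TGACG occurred 1 time each in HLA-B, HLA-C, B2M and TAP2 and 0 times in HLA-F, TAP1 and TAPBP, against 21.2% of promoters. The kappaB motif was matched 2 times in HLA-B, as overlapping matches, and 1 time each in HLA-C, B2M, TAP1 and TAPBP and 0 times in HLA-F and TAP2, against 12.3%. GAAANNGAAA was matched 2 times each in B2M, TAP1 (at the first of its 2 annotated starts) and TAPBP, 1 time each in HLA-F and TAP2, and 0 times in HLA-B and HLA-C, against 3.02% of promoters. TTTCNCTT was matched 1 time each in HLA-B, HLA-C, HLA-F and TAP1, 2 times each in TAP2 and TAPBP and 0 times in B2M, against 6.48% of promoters, and in HLA-F, TAP1, TAP2 and TAPBP it overlaps GAAANNGAAA. The matches are a description of these letters and do not show binding.

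B2M, the light chain that every class I heavy chain needs to reach the surface, had 457, 450.3 and 449 CPM in control and 508, 414 and 500.0 CPM in resistant replicates 1 to 3. The control libraries were close together, and the resistant ones fell on both sides of them. The means were 452 ± 4.20 and 474 ± 52.1 CPM, with a log2FC of 0.07 (SE 0.09, adjusted p = 0.653, edgeR's quasi-likelihood test). B2M shares no 50-base stretch with another gene's transcripts and had 889 to 2444 counts per library, the most of the 9 genes.

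Ratios within a library do not depend on the scaling between libraries. The counts of the 4 heavy chains summed to 0.304, 0.384 and 0.357 of the B2M counts in control and 0.459, 0.479 and 0.536 in resistant replicates 1 to 3. All 3 resistant libraries were above the control ones, and HLA-E supplied most of the sum. HLA-E alone was 0.208, 0.293 and 0.260 of B2M in control and 0.342, 0.424 and 0.358 in resistant cells, a log2 difference of 0.57 (exact two-sided permutation p = 0.1, the smallest that 3 against 3 libraries allow). The difference of the sum was 0.50 on the log2 scale and 0.43 without resistant replicate 3. HLA-E made up 68.5, 76.3 and 72.9% of the heavy-chain counts in control and 74.6, 88.6 and 66.9% in resistant replicates 1 to 3, so its share overlapped between groups. HLA-B was 6.67, 6.96 and 6.22% of the heavy-chain counts in control and 10.7, 1.78 and 13.1% in resistant libraries. The ratio of HLA-B to HLA-C counts overlapped between groups, with means of 0.373 ± 0.108 in control and 0.565 ± 0.325 in resistant libraries (exact two-sided permutation p = 0.7). The genes of these ratios were chosen with earlier results of these data known, so the p-values are given as a description.

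TAP1, the transporter subunit, had 13.4, 12.6 and 12.9 CPM in control and 8.66, 6.11 and 10.8 CPM in resistant replicates 1 to 3. Every resistant library was below every control library, with replicate 2 again the lowest. From 13.0 ± 0.378 to 8.54 ± 2.37 CPM, the log2FC was -0.59 (SE 0.34, adjusted p = 0.210, edgeR's quasi-likelihood test), which did not pass. Only 26 to 67 counts per library lay behind these values. The TAP1 span overlaps PSMB9 in the annotation, and PSMB9, an immunoproteasome subunit, had 0 to 0.753 CPM in control and 0 to 2.17 CPM in resistant cells, below the filter on low counts.

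TAP2, the partner subunit, had 17.0, 11.7 and 10.3 CPM in control and 12.5, 19.7 and 13.9 CPM in resistant cells. Resistant replicate 2, the lowest library for TAP1, was the highest for TAP2, and the groups overlap. The log2FC was 0.28 (SE 0.30, adjusted p = 0.540, edgeR's quasi-likelihood test), and 35.8% of the 50-base stretches of TAP2 also occur in another annotated gene. Only 33 to 84 counts per library lay behind the TAP2 values. The ratio of TAP1 to TAP2 counts was 0.788, 1.08 and 1.26 in control and 0.696, 0.310 and 0.779 in resistant libraries. Every resistant ratio was below the lowest control ratio, by little in replicate 3 (exact two-sided permutation p = 0.1, the smallest possible). As for the ratios above, this p is a description, since both genes were chosen with earlier results known. TAPBP, which encodes tapasin, had 96.1, 126 and 124 CPM in control and 89.9, 121 and 108 CPM in resistant cells, overlapping groups with a log2FC of -0.13 (SE 0.13, adjusted p = 0.486, edgeR's quasi-likelihood test).

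NLRC5, the transactivator, had 3.09, 4.71 and 3.52 CPM in control and 7.58, 6.58 and 10.2 CPM in resistant replicates 1 to 3. All resistant libraries lay above all control libraries. The means were 3.77 ± 0.840 and 8.13 ± 1.88 CPM, a 2.16-fold difference with a log2FC of 1.06 (SE 0.46), and with 6 to 50 counts per library it did not pass (adjusted p = 0.0893, edgeR's quasi-likelihood test). Over the alternatives its log2FC ran from 0.87, without resistant replicate 3, to 1.28, and its adjusted p from 0.0712 to 0.298. Over the 6 libraries NLRC5 and HLA-E had a correlation of 0.94 in log2 level, given as a description.

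**Figure D4:**
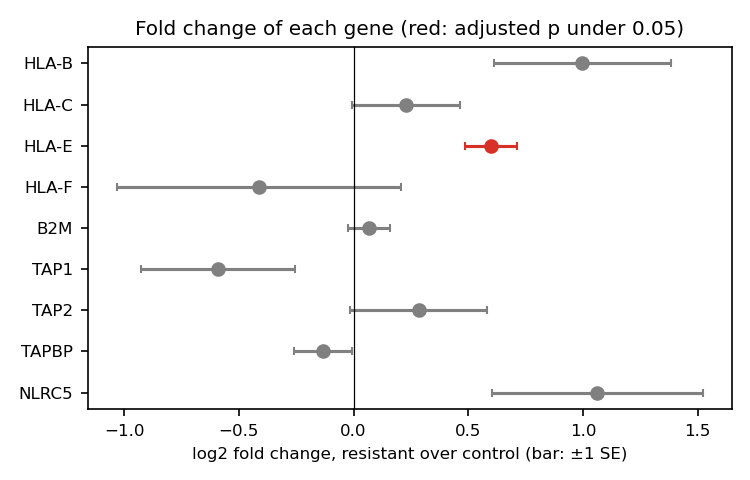
Log2 fold change of each of the 9 class I genes, resistant minus control, with bars of ±1 SE from the edgeR model over 3 control and 3 resistant libraries; the called gene is red. HLA-E (0.60) has a narrow bar, and NLRC5 (1.06), HLA-B (0.997) and TAP1 (-0.59) have wide ones.

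Per length of exon, which allows genes to be compared, B2M was the most abundant of the 9 at 190.2 ± 1.77 RPKM (CPM per kilobase of exon) in control and 199 ± 21.9 RPKM in resistant cells. HLA-E followed with 44.1 ± 7.13 and 67.7 ± 1.06 RPKM, then TAPBP with 27.5 ± 3.99 and 25.3 ± 3.71 RPKM and HLA-C with 18.5 ± 2.48 and 21.2 ± 10.0 RPKM. In control these 4 levels stood apart by more than their SDs. In resistant cells TAPBP and HLA-C did not differ beyond their spread, and HLA-B, at 13.3 ± 10.1 RPKM against 6.57 ± 0.916 in control, overlapped HLA-C. TAP1 (4.38 ± 0.128 in control, 2.89 ± 0.800 RPKM in resistant cells) and TAP2 (2.10 ± 0.572 and 2.49 ± 0.625 RPKM) were separate in control and within their spread of each other in resistant cells. HLA-F, at 1.80 ± 0.496 and 1.37 ± 0.962 RPKM, did not differ from TAP2 beyond its spread in either group, and NLRC5 was the lowest at 0.553 ± 0.123 and 1.19 ± 0.276 RPKM, within the spread of HLA-F in resistant cells. Exon lengths come from the GENCODE 29 annotation, and the sources used here do not name the annotation that the counts were made with.

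Outside the 9 genes, 91 tested genes of the pathway and its neighbours were read from lists, and 17 were called higher and 10 lower, which is 29.7% against 24.1% of all tested genes. Their median log2FC was 0.06. Of 9 further loading and chaperone genes, 1 was called higher and 1 lower, with a median of -0.12. CANX, which encodes the chaperone calnexin that holds newly made heavy chains, rose from 855, 810 and 769 CPM to 948, 972 and 971 CPM (log2FC 0.25, SE 0.08, adjusted p = 0.0249, edgeR's quasi-likelihood test). HSPA5, the general chaperone BiP, fell from 776, 863 and 819 CPM to 551, 651 and 737 CPM (log2FC -0.34, SE 0.09, adjusted p = 0.00542, edgeR's quasi-likelihood test). The call of HSPA5 was just lost without resistant replicate 1 (adjusted p = 0.0508, same test). CALR and PDIA3, whose products sit in the loading complex with tapasin, had log2FC of -0.14 and -0.19 and did not pass.

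Among 13 tested genes of peptide supply, 3 were called higher and 1 lower, where 24.1% of all tested genes were called. Their median log2FC was 0.14. The immunoproteasome subunit genes were not among the called: PSMB8 had 9.26, 6.403 and 4.69 CPM in control and 7.58, 7.05 and 5.32 CPM in resistant cells (log2FC 0.01, SE 0.43). The 3 that rose were the proteasome activator gene PSME3, with a log2FC of 0.34 (SE 0.10), the constitutive subunit gene PSMB7, with 0.29 (SE 0.11), and the cytosolic aminopeptidase gene NPEPPS, with 0.42 (SE 0.11). PSMB7 lost its call in 10 of the 16 alternatives. ERAP2, an aminopeptidase that trims peptides in the endoplasmic reticulum, fell from 19.5, 14.1 and 14.7 CPM to 4.33, 6.11 and 13.9 CPM (log2FC -0.93, SE 0.35, adjusted p = 0.0472, edgeR's quasi-likelihood test). Its resistant replicate 3 was just below the lowest control library, and the call was lost in 8 of the 16 alternatives. ERAP1, the related trimming enzyme, had a log2FC of 0.35 and did not pass (adjusted p = 0.200, same test).

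Of 23 tested genes of class I transcription other than NLRC5, 6 were called higher and 2 lower, where 24.1% of all tested genes were called. Their median log2FC was 0.16. NFYB, a subunit of NF-Y, rose from 44.7, 60.6 and 50.5 CPM to 98.3, 84.4 and 95.5 CPM, with no overlap (log2FC 0.81, SE 0.14, adjusted p = 3.08e-05, edgeR's quasi-likelihood test). NFYA, a second subunit, rose with a log2FC of 0.44 (SE 0.15) and RELA, an NF-kappaB subunit, with 0.32 (SE 0.11). RFX5, of the RFX complex, had 49.4, 51.0 and 59.8 CPM in control and 38.2, 36.4 and 42.8 CPM in resistant cells (log2FC -0.45, SE 0.16, adjusted p = 0.0365, same test), a call lost in 9 of the 16 alternatives. RFXAP, of the same complex, was called higher with no overlap (log2FC 1.83, SE 0.65, adjusted p = 0.0347, same test), on 14 counts over the control libraries. RFXANK, also of that complex, had a log2FC of 0.27 and did not pass, so the complex did not change in 1 direction. IFNGR1, the ligand-binding chain of the interferon-gamma receptor, fell from 114, 89.6 and 122 CPM to 46.8, 42.3 and 56.7 CPM, with no overlap (log2FC -1.15, SE 0.14, adjusted p = 8.75e-08, edgeR's quasi-likelihood test). It was called in all 16 alternatives. IFNGR2, the other chain of that receptor, was called higher (log2FC 0.35, SE 0.12, adjusted p = 0.0276, same test). How the calls of RFXAP and IFNGR2 fared in the alternatives is not given here. IRF1, an interferon-induced activator of class I and TAP1, had a log2FC of 0.23 and did not pass.

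Among 19 tested interferon-stimulated genes, 3 were called higher and 2 lower, where 24.1% of all tested genes were called. Their median log2FC was 0.19. IFIT3, called higher, had 3.09, 5.27 and 3.52 CPM in control and 7.04, 5.17 and 26.0 CPM in resistant replicates 1 to 3. IFI27, also called higher, had 0, 4.14 and 3.52 CPM in control and 3.25, 4.70 and 27.0 CPM in resistant cells. Only resistant replicate 3 was far above the control libraries in either gene, and the groups overlap. Without it their log2FC were 0.58 and 0.48, with adjusted p of 0.545 and 0.702 (edgeR's quasi-likelihood test). That library also had the highest sum over the list, 697 CPM, against 380 and 390 CPM in the other resistant libraries and 430 to 491 CPM in control. OAS3 and GBP2 fell, with log2FC of -0.40 (SE 0.12) and -0.81 (SE 0.26).

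**Figure D5:**
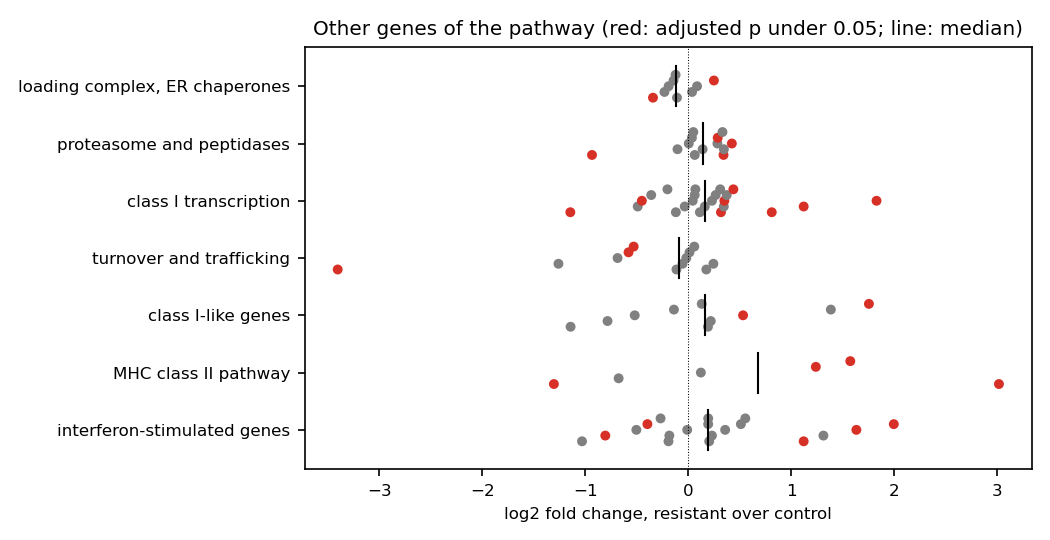
Log2 fold change, resistant minus control, of the tested genes of each list other than the 9 class I genes, 1 row per list; red points are called at an adjusted p below 0.05 and the short line is the list's median. Over these lists, which leave out the cell type markers, the medians run from -0.12 for loading and chaperone genes to 0.68 for the class II pathway. Its 6 tested genes include 3 called higher, where 11.7% of all tested genes were called higher.

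Of 12 genes of class I turnover and trafficking, 0 were called higher and 3 lower, with a median log2FC of -0.09. Among all tested genes 24.1% were called, 11.7% higher and 12.3% lower. NBR1, an autophagy receptor that has been tied to lysosomal loss of class I, fell from 134, 155 and 162 CPM to 108, 87.7 and 117 CPM (log2FC -0.53, SE 0.12, adjusted p = 0.000882, edgeR's quasi-likelihood test). SYVN1, a ubiquitin ligase of the endoplasmic reticulum, fell with a log2FC of -0.58 (SE 0.15). Neither gene overlapped between groups. Among 10 tested class I-like genes 2 were called higher and 0 lower, against the same 24.1% of all tested genes. PROCR, the endothelial protein C receptor with a class I-like fold, rose from 51.9, 53.3 and 58.1 CPM to 68.2, 82.3 and 85.7 CPM. RAET1L, a ligand of the receptor NKG2D, rose from 1.03, 1.88 and 1.17 CPM to 3.25, 5.17 and 6.34 CPM. RAET1L lost its call in 10 of the alternatives.

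The class II pathway, which shares the RFX and NF-Y factors, had 6 tested genes among 15 listed, and the others were below the filter on low counts. Of the 6 tested, 3 were called higher and 1 lower, where 24.1% of all tested genes were called. CD74, the invariant chain, had 7.20, 15.8 and 6.45 CPM in control and 44.4, 16.5 and 33.3 CPM in resistant replicates 1 to 3, with the resistant libraries above the control ones by little in replicate 2 (log2FC 1.57, SE 0.30, adjusted p = 0.000115, edgeR's quasi-likelihood test). HLA-DPA1 rose from 1.03, 1.13 and 0.587 CPM to 7.58, 6.58 and 9.002 CPM (log2FC 3.02, SE 0.60, adjusted p = 0.000214, same test), on 10 counts over the control libraries. HLA-DRA had 2.06, 12.6 and 4.11 CPM in control and 19.5, 11.5 and 19.0 CPM in resistant cells, overlapping groups with a log2FC of 1.24 (SE 0.38, adjusted p = 0.0126, same test). Resistant replicate 2 was the lowest resistant library for all 3, as for HLA-B. Unlike HLA-B, it was above the control mean, at 0.74 for CD74, 0.88 for HLA-DRA and 2.85 for HLA-DPA1 on the log2 scale. CIITA, the class II transactivator, had a log2FC of 0.12 and did not pass. The leukocyte markers PTPRC and LAPTM5, which antigen-presenting cells also express, had log2FC of 0.90 (SE 0.57) and 0.94 (SE 0.61) with no overlap between groups and did not pass (adjusted p = 0.271 and 0.284, same test), and their part in the class II values was not tested. CTSS, the lysosomal protease that cuts CD74, fell with a log2FC of -1.30 (SE 0.33), a call that needed control replicate 3 (adjusted p = 0.0614 without it, same test).

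Of the 9 genes, 7 lie in the MHC on chromosome 6, between 29722775 and 33314387 on GRCh38, with B2M on chromosome 15 and NLRC5 on chromosome 16. HLA-E spans 30489467 to 30494205 on the plus strand, TAP2 32821833 to 32838780 and TAP1 32845209 to 32853978, both on the minus strand, and TAPBP 33299694 to 33314387 on the minus strand. Of 66 other tested genes in the interval, 10 were called higher and 5 lower, which is 22.7%, with a median log2FC of 0.03. The calls in this interval were near the 24.1% of all tested genes.

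Among 6968 genes outside the MHC lists with a mean of at least 20 CPM, those whose log2 level over the 6 libraries was most like that of HLA-B included TDRD7 and MTG2, with Pearson correlations of 0.96 and 0.96. Their range was far smaller: MTG2 ran from 38.6 to 52.2 CPM in resistant cells, where HLA-B ran from 3.53 to 34.98 CPM. The genes most like TAP1 were ARFGAP2, PPDPF and ODF2, with correlations of 0.998, 0.990 and 0.986. ARFGAP2 had 59.6, 55.0 and 57.8 CPM in control and 42.2, 32.0 and 48.7 CPM in resistant replicates 1 to 3, in the order of TAP1. These genes are among the highest of 6968 candidates over 6 points, so the size of the correlations follows in part from the choice.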

How the data were processed

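Total RNA of 6 MHCC97H libraries, 3 control and 3 resistant, was extracted with Trizol and the Direct-zol kit and made into libraries with EasyRNA-seq, per the labels. Trimmomatic, HISAT2 and Bowtie2 are the tools in the submitters' processing notes. The sources used here do not give their versions and roles, the counting program, the build and annotation, or whether strand was used, so reads of overlapping or near-identical genes cannot be assigned with certainty. The authors deposited raw counts, whole numbers for 19202 gene symbols with no normalization. The 6 single-library tables equalled the table of the series, and 27 symbols turned into dates were renamed by Entrez ID. Totals ran from 1913469 to 5345272. Among non-zero counts 63.6 to 69.1% were even. Whether both mates of a pair were counted was not tested, and if they were, counting error would be larger than the counts show.

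The counts were tested with edgeR 4.0.16 (R 4.3.3): TMM scaling, filterByExpr, the quasi-likelihood F test on group and Benjamini-Hochberg adjustment over 10804 tested genes at 0.05. The common dispersion was 0.017. Levels are TMM-scaled CPM, and RPKM values use merged exon lengths of GENCODE 29. The script was tested on simulated counts. The alternatives tried were DESeq2 1.42.0, limma-voom (limma 3.58.1), scaling by RLE, upper quartiles or library totals, no filter, a filter of 1 CPM in 3 libraries, a replicate block, an adjusted p of 0.01, halved counts, and each library left out. Ratios within a library were compared by an exact permutation test. The plan named it only for the summed heavy chains over B2M, and the other ratios were added to it. Sequences were read from RefSeq promoters on GRCh38.p14.

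The class I genes and the lists were chosen with earlier results of these data known. The genes named are the 9 class I genes, at most 4 called genes of smallest p per list, the most abundant and any called markers (at most 3 per list, with SERPINA1 beyond that number), and the 3 genes most like HLA-B and TAP1. RFX5, IRF1, PSMB8, PSMB9, ERAP1, CALR, PDIA3, CIITA, HNF4A and the markers PTPRC, LAPTM5, PECAM1, VWF, CDH5, COL1A2, CD2, CD3D, APOA1, APOA2 and TTR were named after their values were seen. The same holds for RFXAP, RFXANK and IFNGR2. Some listed genes and genes of like pattern are not reported here.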

Additional observations from a re-analysis of the deposited data

How the results depend on the processing

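HLA-E was called higher in each of the 16 alternatives, with a log2FC of 0.50 to 0.72, and the number of class I genes called lower was 0 in all. The number called higher was 2 with no filter on low counts and 2 with halved counts, and 1 to 2 when each library was left out in turn. HLA-B was the added gene each time, with adjusted p of 0.0039, 0.0274 and, without resistant replicate 2, 0.000175 (edgeR's quasi-likelihood test), against a range of 0.000175 to 0.536 over all its alternatives. HLA-F had a log2FC of 0.0472 and the endothelial gene ESAM -0.033 without resistant replicate 2, and HLA-C -0.19 without resistant replicate 3. With libraries left out, log2FC ran from -1.001 to 0.0472 for HLA-F, -0.19 to 0.53 for HLA-C, -0.19 to 0.25 for PSMB8 and -0.033 to 0.195 for ESAM. PSMB8 was at -0.0050 with upper-quartile scaling and -0.0176 with library totals. In each of these the cause was not tested. Of the other pathway genes, 17 were called higher and 10 lower, against 8 and 6 at an adjusted p of 0.01, and 12 to 17 and 5 to 9 with libraries left out, where fewer libraries entered the test. Same-numbered libraries did not deviate together (correlations of -0.015, 0.033 and -0.006), so the numbers were not taken as pairs. With the replicate block 1 class I gene was called higher and 0 lower, 14 and 10 pathway genes were called, and 2518 against 2601 genes in all. Beyond PSMB7, ERAP2, RFX5, RAET1L, IFIT3, IFI27, HSPA5 and CTSS, calls were lost when 1 library was left out for CANX (4 libraries, adjusted p up to 0.122), NFYA (4, up to 0.143), GBP2 (4, up to 0.0969), SERPINA1 (4, up to 0.114), HLA-DRA (3, up to 0.093), OAS3 (3, up to 0.116) and RELA (2, up to 0.0945), all with the same direction and from edgeR's quasi-likelihood test. Low counts limit HLA-B, HLA-F, TAP1, TAP2 and NLRC5, where a difference may go undetected at this depth.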

Other observations

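Among the genes called within the MHC interval on chromosome 6, the largest differences after that of HLA-DPA1 included genes outside the antigen presentation lists, and those named here were chosen after their values were seen. TRIM31, a ubiquitin ligase gene, had 32.4, 36.5 and 31.4 CPM in control and 9.20, 6.11 and 8.80 CPM in resistant replicates 1 to 3 (log2FC -2.06, SE 0.25, adjusted p = 4.69e-08, edgeR's quasi-likelihood test). TCF19 had 18.5, 20.3 and 18.5 CPM in control and 11.4, 5.64 and 8.59 CPM in resistant cells (log2FC -1.17, SE 0.30, adjusted p = 0.0036, same test). The groups overlapped in neither gene, and resistant replicate 2 was the lowest library in both.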
